A study of Arabidopsis thaliana with 8 samples.

Results

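Whether the root RNA response to lighting the shoot differed between 4 and 7 days was measured as a light by age interaction, locus by locus. Of the 33602 loci in the count table, 21026 entered the test because they had at least 10 counts in at least 2 of the 8 libraries. At that limit, 122 loci just entered with a second-highest count of 10, 134 just missed with 9, and 4970 had no count in any library. The interaction value of a locus was its log2 ratio of lit to dark at 7 days minus the same log2 ratio at 4 days. A positive value, called higher below, means that the lit-to-dark ratio was larger at 7 days, and a negative value, called lower, that it was smaller. A value of 1 is a doubling of that ratio. A locus was called when the adjusted p of edgeR's quasi-likelihood test, by Benjamini-Hochberg over all 21026 loci, was below 0.05.

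The samples were primary roots of Col-0, an accession of Arabidopsis thaliana, grown on vertical plates of sucrose-free Murashige and Skoog agar medium at 21 °C. In the dark groups, aluminium foil covered the whole plate, so that shoot and root were both dark. In the lit groups, a modified D-Root system, in which the shoot is illuminated and the root is shaded, gave white light at 130 µmol for 16 h, followed by 8 h of dark. Groups of 2 libraries were made at 4 and at 7 days of each condition, each library made from its own pool of roughly 70 seedlings as a biological replicate, and no genotype, chemical or sugar treatment differed between them.

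A seedling without light lives on the fat and protein laid down in the seed, and its root receives sugar from those stores alone. A lit shoot exports photosynthetic sucrose and mobile signals to the root through the phloem, and root meristems divide, elongate and make vessels as that carbon arrives. When sugar runs short, plant cells switch on genes for breaking down amino acids, lipids and proteins, and reduce ribosome production and cell division.

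The 8 libraries held 25326045 to 30555290 counts. Mitochondrial loci took 2.66% to 10.46% of the counts, most in the 4-day dark libraries (8.68% and 10.46%), and the 7-day lit libraries differed from each other (6.46% and 2.66%). Levels are given as CPM, a locus's counts relative to the TMM-scaled library total, and depend on everything else in the library. In a whole-root sample, fewer cells of a type and less RNA per cell cannot be told apart. Root markers were detected in all libraries: the summed level of 9 root meristem and cap markers was 69.7 to 137 CPM and that of 6 endodermis markers 136 to 423 CPM. The 7 xylem markers summed to 272 and 390 CPM in 4-day dark, 21.7 and 19.0 in 7-day dark, 526 and 482 in 4-day lit and 632 and 438 in 7-day lit roots. Root hair markers (5 genes) summed to 25.7 and 32.9, 6.06 and 11.9, 142 and 140, and 74.5 and 110 CPM in the same order. The 16 shoot markers summed to 38.8 to 70.0 CPM, most of it KCS10. The stomatal markers MUTE, FMA and EPF1 had no count in any library, while TMM, SPCH and EPF2 had at most 14, 5 and 2 counts. The shoot epidermis marker PDF1 reached 299 and 473 counts in the 7-day lit libraries. Seed markers summed to 1.14 CPM or less.

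The light response differed with age at 3055 loci, 14.5% of those tested. Of these, 1889 were higher (8.98% of the loci tested) and 1166 lower (5.55%), and 1904 of the calls exceeded 1 on the log2 scale. All 3055 calls had the same sign in all 16 combinations of 1 library per group. Those combinations reuse the libraries that gave the calls, so this is no separate support for them. The median interaction value was 1.53 among the higher calls and -0.89 among the lower calls, against 0.0044 over all loci tested. Those medians describe loci selected by the same test. With library totals in place of TMM, 56.0% of the calls were higher against 61.8%, and with organelle, rRNA and tRNA loci removed 71.3% were. The calls depended on single libraries: without lit 4-day library 1 there were 633 higher and 207 lower calls, and without lit 4-day library 2 there were 736 and 347. The higher calls fell to 1195 without dark 7-day library 1. The lower calls numbered 612 without dark 4-day library 1, 464 without dark 4-day library 2, 357 without dark 7-day library 1 and 775 without dark 7-day library 2. With no filter on low counts there were 3110 higher and 1854 lower calls.

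Most higher calls had a positive fitted light effect at both ages. That it was larger at 7 days follows from the positive interaction. The light effect was positive at both ages for 80.9% of the higher calls, turned from negative at 4 days to positive at 7 days for 16.1%, and was negative at both ages but smaller at 7 days for 2.96%. Their median light effect was 0.88 on the log2 scale at 4 days and 2.52 at 7 days. Over all loci tested, the light effect was called at 56.9% at 4 days and at 68.9% at 7 days. Among the lower calls, 62.2% had a negative light effect that was larger in size at 7 days, 24.5% turned from positive to negative, and 13.3% had a positive light effect that was smaller at 7 days. At the level of single calls, 64 higher and 56 lower loci passed the test at both ages with opposite signs of the light effect. That effect was called at both ages with the same sign at 65.4% of the higher and 53.3% of the lower calls. At 7 days only, it was called at 26.3% and 27.9%.

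**Figure D1:**
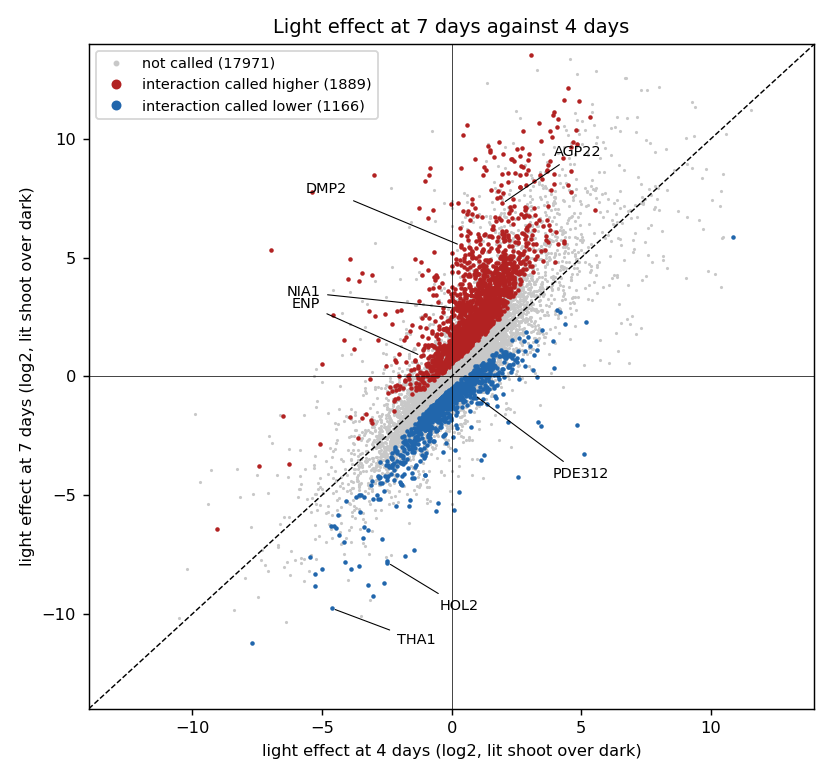
Light effect of each of the 21026 loci tested, as the log2 ratio of lit to dark, at 4 days (x axis) against 7 days (y axis). Colours mark the 1889 higher and 1166 lower interaction calls, and the dashed line marks equal effects; the higher calls lie above it and the lower calls below it, which follows from how they were chosen.

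Among the called loci the change with age was mostly larger in the dark than in the lit roots, in size at 87.5% of the higher and 74.8% of the lower calls. Among the higher calls, the level changed with age in the dark but not, by the same test, with lit shoots at 1532 loci (81.1%), and with lit shoots but not in the dark at 114 (6.03%). The median change from 4 to 7 days of the higher calls was -1.496 on the log2 scale in the dark and 0.031 with lit shoots. Among the lower calls, 865 (74.2%) changed with age in the dark alone and 113 (9.69%) with lit shoots alone. Their median change was 0.65 in the dark and -0.23 with lit shoots. Over all loci tested, 31.5% changed with age in the dark and 4.22% with lit shoots. Age calls with lit shoots, also those of lists and genes given below, depended on single libraries. The count with lit shoots was the least steady: it was 888, and 0 without lit 4-day library 1, where edgeR gave 2719 loci at an unadjusted p below 0.05, DESeq2 called 483 and limma voom 9. It was 93 without lit 4-day library 2 and 342 without lit 7-day library 1, 1786 with DESeq2 and 3056 with no filter on low counts. The count in the dark was 6633, and 3481 without dark 7-day library 1 and 3902 without dark 4-day library 2.

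Put by group, the 7-day dark roots were the ones set apart at most called loci. They were the farthest from the other 3 groups and the lowest at 1524 of the 1889 higher calls. These loci were selected by the interaction test, and the same count over all loci tested was not made. The 7-day lit roots were the highest and farthest group at 218 higher calls. For the lower calls the pattern was more mixed: the 7-day dark roots were highest at 641 of 1166, the 7-day lit roots lowest at 253 and the 4-day dark roots lowest at 248. The interaction is defined on ratios; the difference of differences in mean CPM had the same sign at 90.7% of the higher and 99.5% of the lower calls.

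**Figure D2:**
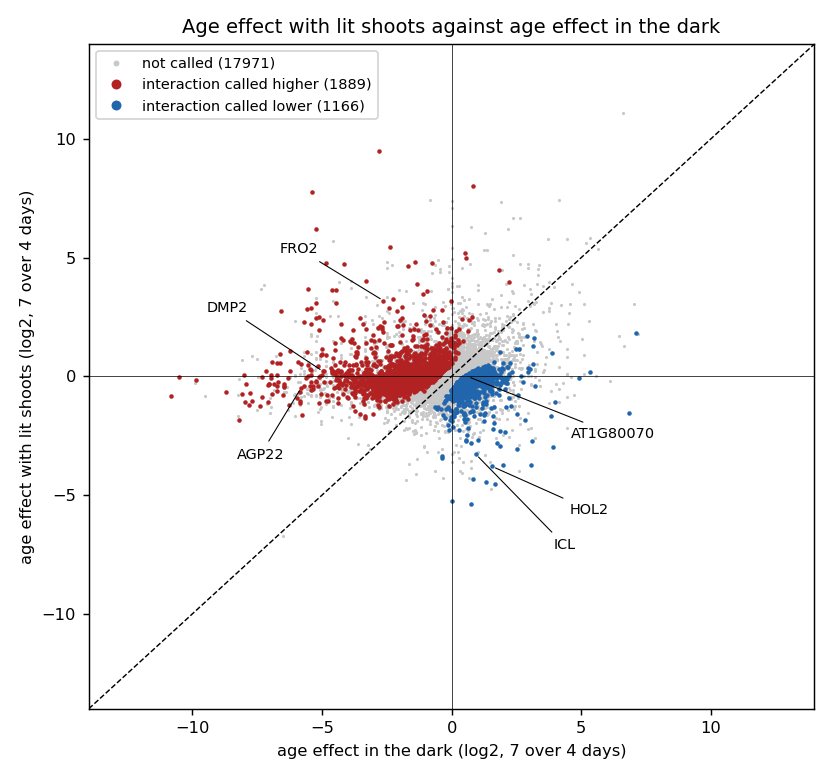
Change from 4 to 7 days of each locus tested, on the log2 scale, in dark roots (x axis) and in lit roots (y axis), with the same colours for interaction calls. The higher calls spread to the left along the x axis (median -1.496 in the dark, 0.031 with lit shoots) and the lower calls to the right (0.65 and -0.23).

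The largest higher values among well-expressed genes belonged mostly to genes that were lowest in 7-day dark roots. FRO2 (AT1G01580, chr1:208995-213082), the ferric-chelate reductase of root iron uptake, stood at 5.05 and 4.03 CPM in the dark at 4 days, 0.957 and 0.515 in the dark at 7 days, 10.1 and 47.3 with lit shoots at 4 days and 194 and 329 with lit shoots at 7 days. The groups did not overlap, with 7-day dark lowest and 7-day lit highest, but the 4-day lit libraries were far apart. Its interaction was 5.82 ± 1.205, adjusted p = 0.0276, and the call was lost without either dark 4-day library, either dark 7-day library or either lit 7-day library (adjusted p = 0.059 to 0.095) and with limma voom (0.072). DR4 (AT1G73330, chr1:27568714-27569823), a gene named for its repression by drought, had 16.6 and 71.9 CPM in 4-day and 4.35 and 2.06 in 7-day dark roots, and 359.5 and 326 in 4-day and 1648 and 1024 in 7-day lit roots. The order was the same as for FRO2 without overlap, and the interaction was 5.76 ± 1.01, adjusted p = 0.0173. This call was lost without either dark 7-day library, either lit 4-day library or either lit 7-day library (adjusted p = 0.051 to 0.069). AGP22 (AT5G53250, chr5:21603569-21604414), an arabinogalactan protein of the cell surface, had 41.3 and 31.7 CPM in 4-day and 0.837 and 0.478 in 7-day dark roots, and 145 and 139 in 4-day and 96.2 and 108 in 7-day lit roots. It fell by 5.797 on the log2 scale with age in the dark. Its level with lit shoots changed by -0.47 (adjusted p = 0.128), which gave an interaction of 5.33 ± 0.29, adjusted p = 9.54e-05.

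DMP2 (AT3G21550, chr3:7591394-7592373), a membrane protein of the DMP family, and CTL2 (AT3G16920, chr3:5776264-5778052), a chitinase-like protein tied to secondary wall cellulose, shared that shape. DMP2 stood at 0.917 and 0.662 CPM in 7-day dark roots against 20.4 and 28.7 in 4-day dark, 32.95 and 29.6 in 4-day lit and 42.8 and 29.4 in 7-day lit roots. CTL2 stood at 0.917 and 0.552 CPM in 7-day dark roots against 15.96 and 20.7 in 4-day dark, 40.1 and 34.2 in 4-day lit and 52.1 and 41.7 in 7-day lit roots. Both 7-day dark libraries lay below 1 CPM and all 6 others at 15.96 CPM or above for each gene. The interactions were 5.16 ± 0.37, adjusted p = 0.000353, and 4.98 ± 0.33, adjusted p = 0.00019. VSP1 (AT5G24780, chr5:8507590-8509201), a vegetative storage protein that jasmonate induces, and MRN1 (AT5G42600, chr5:17053453-17058245), the marneral synthase of a root triterpene cluster, moved in both conditions. VSP1 had 3.18 and 3.16 CPM in 4-day and 0.718 and 0.478 in 7-day dark roots, and 4.76 and 4.87 in 4-day and 48.4 and 23.4 in 7-day lit roots, falling in the dark (adjusted p = 0.00599) and rising with lit shoots (adjusted p = 0.0077). MRN1 had 8.83 and 22.2 CPM in 4-day and 2.03 and 2.47 in 7-day dark roots, and 10.8 and 9.64 in 4-day and 44.5 and 43.3 in 7-day lit roots, and it too fell in the dark (adjusted p = 0.00321) and rose with lit shoots (adjusted p = 0.0304). Their interactions were 5.299 ± 0.55, adjusted p = 0.00166, and 4.88 ± 0.55, adjusted p = 0.0029. KCS16 (AT4G34250, chr4:16394600-16396703), an enzyme of very-long-chain fatty acid elongation, was of another kind. It had 15.1 and 6.67 CPM in 4-day and 2.55 and 1.99 in 7-day dark roots, and 0.5998 and 0.0686 in 4-day and 2.29 and 4.24 in 7-day lit roots. Light lowered it at 4 days (log2 -4.996, adjusted p = 0.000939), at 7 days the dark and lit libraries overlapped, and the interaction was 5.53 ± 0.96, adjusted p = 0.012. The calls of AGP22, DMP2, CTL2, VSP1, MRN1 and KCS16 held in all settings tried.

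Where a group held 10 counts or fewer in sum, the fitted value is no ratio of measured levels, so such genes are given by their levels and their test. Among those with a RefSeq symbol and an average log2 CPM of at least 2, DJ1F, IRT2 and ICS2 came first on the higher side by that value. DJ1F, a member of the DJ-1 family, had 1.79 and 0.649 CPM in 4-day and 0.0399 and 0 in 7-day dark roots, and 3.03 and 3.78 in 4-day and 12.6 and 20.3 in 7-day lit roots. ICS2, an isochorismate synthase, had 0.651 and 0.996 CPM in 4-day and 0.0399 and 0 in 7-day dark roots, and 13.2 and 11.6 in 4-day and 58.5 and 38.5 in 7-day lit roots. IRT2, an iron-regulated metal transporter, had 0.204 and 0.693 CPM in 4-day and 0 and 0 in 7-day dark roots, and 6.83 and 7.07 in 4-day and 10.3 and 10.1 in 7-day lit roots. All 3 were highest in 7-day lit and at or near 0 in 7-day dark roots, with no overlap between those groups. On the lower side, SOM, a zinc finger regulator of seed germination in light, had 17.95 and 10.7 CPM in 4-day and 27.5 and 21.02 in 7-day dark roots, and 0.433 and 0.309 in 4-day and 0.0729 and 0.0301 in 7-day lit roots, so that dark roots were the higher ones at both ages. G4 encodes chlorophyll synthase. It was not detected in 4-day dark roots and had 0.1196 and 0.147 CPM in 7-day dark, 8.86 and 8.07 in 4-day lit and 8.05 and 8.33 in 7-day lit roots, and both its lit groups overlapped. The IRT2 call was lost without lit 4-day library 1 (adjusted p = 0.056). The SOM call was lost without dark 7-day library 1, either lit 4-day library or either lit 7-day library (adjusted p = 0.052 to 0.11) and with limma voom (0.15). The G4 call was lost without either dark 4-day library, either dark 7-day library, either lit 4-day library or lit 7-day library 2 (adjusted p = 0.054 to 0.12) and with DESeq2 (0.053) and with limma voom (0.069).

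**Figure D3:**
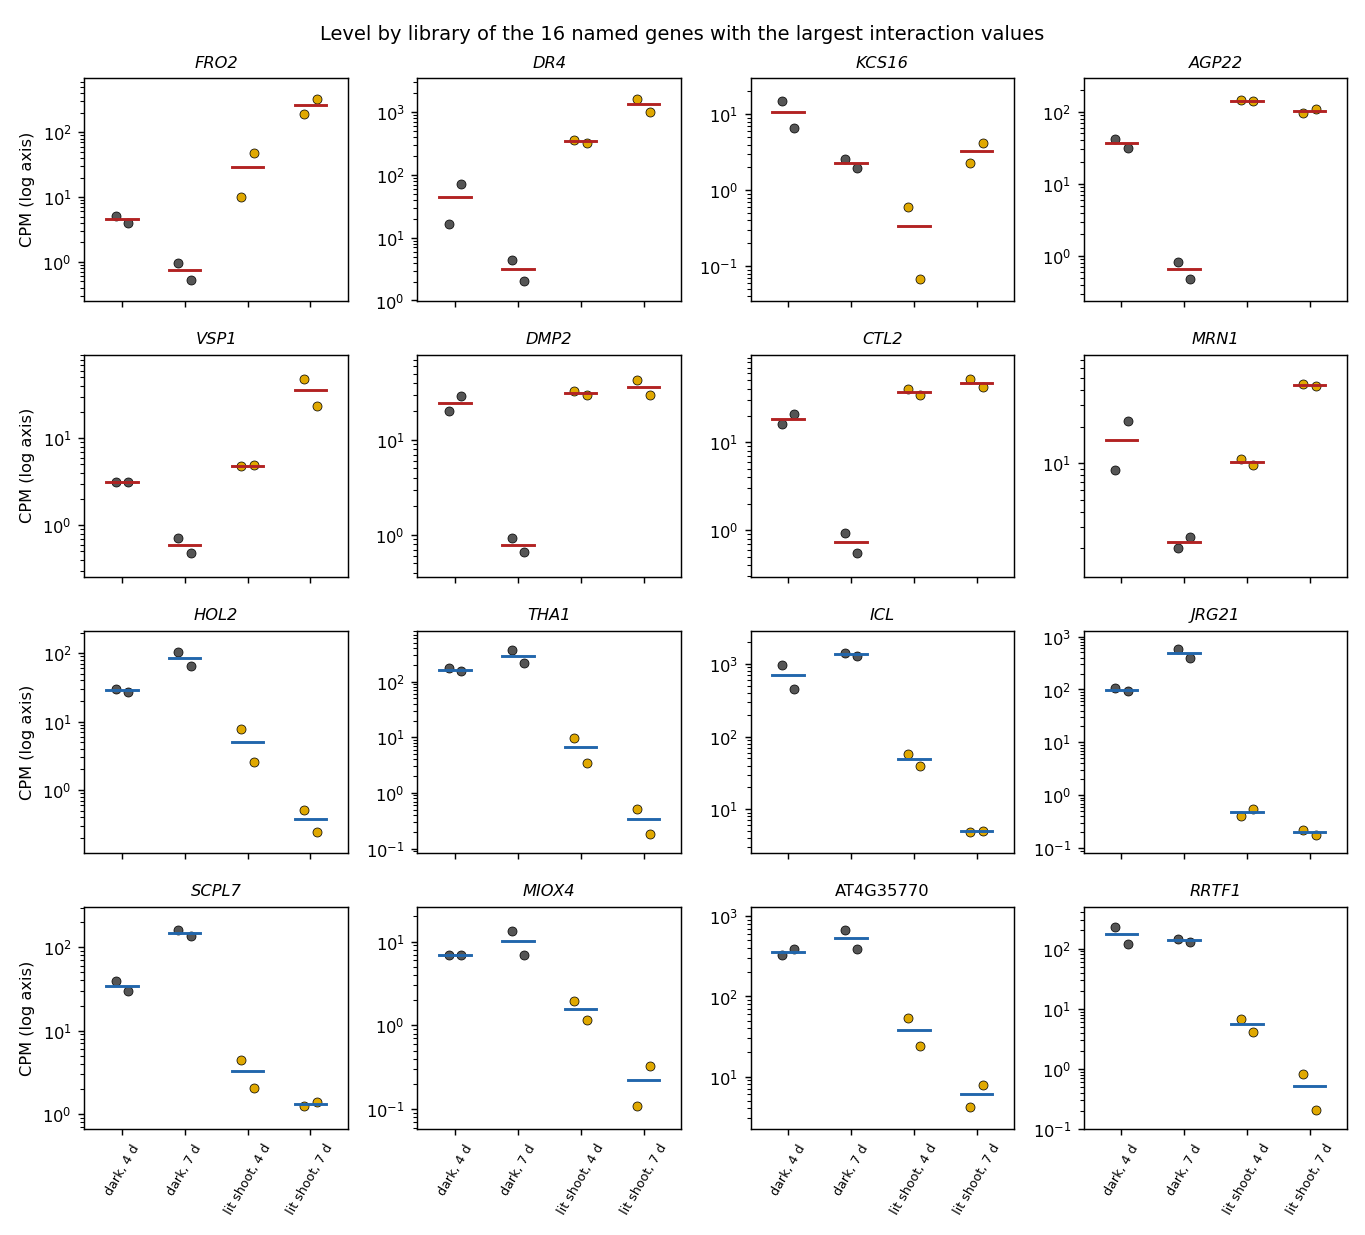
Level in CPM on a log axis of the 8 genes of each direction with the largest interaction values among well-expressed genes, a panel per gene, with a point for each library and a bar at each group's mean. The 7-day dark points are the lowest in 7 of the 8 higher genes, and for the 8 lower genes the 7-day lit points are the lowest.

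Among well-expressed genes, the largest lower values belonged to genes that light reduced at both ages, more so at 7 days. HOL2 (AT2G43920, chr2:18189004-18191348), an S-adenosylmethionine-dependent methyltransferase, had 29.6 and 27.4 CPM in 4-day and 104 and 64.7 in 7-day dark roots, and 7.66 and 2.54 in 4-day and 0.510 and 0.241 in 7-day lit roots. THA1 (AT1G08630, chr1:2743761-2747967), a threonine aldolase that breaks threonine down to glycine, had 174 and 152 CPM in 4-day and 373 and 213 in 7-day dark roots, and 9.73 and 3.501 in 4-day and 0.510 and 0.1805 in 7-day lit roots. ICL (AT3G21720, chr3:7652487-7656053), the isocitrate lyase of the glyoxylate cycle that turns stored fat into sugar, had 977 and 449.6 CPM in 4-day and 1442 and 1293 in 7-day dark roots, and 57.8 and 39.8 in 4-day and 4.92 and 5.08 in 7-day lit roots. In all 3, 7-day lit was the lowest group and 7-day dark the highest, with no overlap among the groups. With age, each fell in the lit roots, with log2 changes of -3.79 (adjusted p = 0.045), -4.303 (adjusted p = 0.0411) and -3.29 (adjusted p = 0.0122). The interactions were -5.36 ± 0.85, adjusted p = 0.0125 for HOL2, -5.15 ± 0.91, adjusted p = 0.0173 for THA1, and -4.22 ± 0.52, adjusted p = 0.00391 for ICL. The HOL2 call was lost without lit 7-day library 2 (adjusted p = 0.068). The THA1 call was lost without either lit 7-day library (adjusted p = 0.066 to 0.093).

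JRG21 (AT3G55970, chr3:20766735-20769410), a jasmonate-regulated dioxygenase, and SCPL7 (AT3G10450, chr3:3249513-3252582), a serine carboxypeptidase-like protein, rose with age in the dark, while their change with lit shoots did not pass the test (adjusted p = 0.178 and 0.0976). JRG21 had 105 and 92.4 CPM in 4-day and 571 and 396 in 7-day dark roots, and 0.3998 and 0.549 in 4-day and 0.219 and 0.1805 in 7-day lit roots. SCPL7 had 39.5 and 29.9 CPM in 4-day and 159.5 and 135 in 7-day dark roots, and 4.398 and 2.06 in 4-day and 1.24 and 1.38 in 7-day lit roots. Their rise in the dark was 2.29 (adjusted p = 0.000105) and 2.08 (adjusted p = 0.00158), and no library of 7-day dark overlapped with another group. The interactions were -3.53 ± 0.51, adjusted p = 0.00457, and -3.38 ± 0.46, adjusted p = 0.00503. The JRG21 call was lost with limma voom (adjusted p = 0.055). MIOX4, a myo-inositol oxygenase, had 6.84 and 6.93 CPM in 4-day and 13.6 and 6.96 in 7-day dark roots, and 1.93 and 1.17 in 4-day and 0.109 and 0.331 in 7-day lit roots. AT4G35770, annotated as SENESCENCE 1 and DARK INDUCIBLE 1, had 327 and 393 CPM in 4-day and 676 and 396 in 7-day dark roots, and 53.1 and 24.3 in 4-day and 4.23 and 7.88 in 7-day lit roots. RRTF1, a redox-responsive transcription factor, had 231 and 120.5 CPM in 4-day and 145 and 130.1 in 7-day dark roots, and 6.897 and 4.08 in 4-day and 0.838 and 0.211 in 7-day lit roots. The dark groups overlapped for RRTF1 and nearly met for MIOX4 and AT4G35770, and all 3 genes fell with age in lit roots without overlap (adjusted p = 0.0406, 0.0441 and 0.0425). Their interactions were -3.31 ± 0.69, adjusted p = 0.0177, -3.24 ± 0.67, adjusted p = 0.027, and -3.095 ± 0.77, adjusted p = 0.0448. The MIOX4 call was lost without lit 4-day library 1 (adjusted p = 0.078) and with limma voom (0.074). The AT4G35770 call was lost without either dark 4-day library, dark 7-day library 1, lit 4-day library 1 or either lit 7-day library (adjusted p = 0.054 to 0.087). The RRTF1 call was lost without dark 4-day library 2, either dark 7-day library, either lit 4-day library or either lit 7-day library (adjusted p = 0.054 to 0.16) and without the organelle loci (0.052) and with limma voom (0.088). Loci on the opposite strand overlap 69.5% of RRTF1, and the strand used in counting is not given in the sources used here.

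Some genes reversed their light response between the ages, each with the light effect called at both. ENP (MACCHI-BOU 4), an NPH3-family protein of auxin-guided organ formation, was reduced by light at 4 days and raised by it at 7 days, from 51.7 and 43.2 CPM in dark and 23.5 and 18.6 in lit roots at 4 days to 17.8 and 15.5 and 34.2 and 26.5 at 7 days. The light effects were -1.17 (adjusted p = 0.000616) and 0.86 (adjusted p = 0.00215). The pectin methylesterase PME44 had 14.2 and 5.196 CPM in 4-day and 1.396 and 0.994 in 7-day dark roots, and 2.499 and 2.47 in 4-day and 5.32 and 11.1 in 7-day lit roots. The glycine-rich protein DOT1, named for a leaf vein defect, had 58.7 and 69.1 CPM in 4-day and 14.1 and 10.6 in 7-day dark roots, and 24.4 and 19.5 in 4-day and 84.6 and 26.4 in 7-day lit roots. In each, the 4-day dark roots lay above the 4-day lit roots and the 7-day dark roots below the 7-day lit roots, without overlap. The interactions were 2.04 ± 0.25, adjusted p = 0.00225 for ENP, 4.75 ± 0.77, adjusted p = 0.00957 for PME44, and 3.71 ± 0.73, adjusted p = 0.0239 for DOT1. The PME44 call was lost without lit 4-day library 1 (adjusted p = 0.051). The DOT1 call was lost without dark 4-day library 2, either dark 7-day library or either lit 4-day library (adjusted p = 0.057 to 0.08).

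The reverse switch, induced by light at 4 days and below dark at 7 days, was seen in ACP4, an acyl carrier protein of plastid fatty acid synthesis, HFR1, a bHLH factor of phytochrome signalling, and PDE312, a subunit of the plastid transcription machinery (PTAC10). ACP4 had 3.46 and 2.47 CPM in 4-day and 7.74 and 8.69 in 7-day dark roots, and 6.098 and 5.66 in 4-day and 3.13 and 4.42 in 7-day lit roots. HFR1 had 5.74 and 5.85 CPM in 4-day and 16.4 and 11.8 in 7-day dark roots, and 13.1 and 13.6 in 4-day and 5.14 and 9.32 in 7-day lit roots. PDE312 had 7.86 and 6.32 CPM in 4-day and 23.2 and 19.1 in 7-day dark roots, and 13.7 and 12.5 in 4-day and 11.6 and 12.8 in 7-day lit roots. Each rose with age in the dark, by 1.47, 1.28 and 1.57 on the log2 scale (adjusted p = 0.00366, 0.01 and 0.000401), and their change with lit shoots did not pass the test (adjusted p = 0.177, 0.106 and 0.778). The interactions were -2.100 ± 0.35, adjusted p = 0.00801, -2.16 ± 0.39, adjusted p = 0.011, and -1.67 ± 0.23, adjusted p = 0.00391. These calls, and that of ENP, held in all settings tried.

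The most abundant nuclear transcripts with a call had smaller interaction values than the genes above with the largest ones. JAL34, a mannose-binding jacalin-related lectin, had 1518 and 1782 CPM in 4-day and 832 and 1009.6 in 7-day dark roots, and 2135 and 1841 in 4-day and 2034 and 2049 in 7-day lit roots. ATMS1, the cobalamin-independent methionine synthase, had 704 and 738 CPM in 4-day and 396 and 419 in 7-day dark roots, and 2512 and 2653 in 4-day and 2439 and 2778 in 7-day lit roots. NRT1.5, which loads nitrate into the xylem, had 2701 and 2877 CPM in 4-day and 1076 and 451 in 7-day dark roots, and 1122 and 982 in 4-day and 1499.7 and 988 in 7-day lit roots. In JAL34 and ATMS1 the 7-day dark roots were lowest, and NRT1.5 was highest in the 4-day dark roots, with the other groups overlapping. The interactions were 0.88 ± 0.22, adjusted p = 0.0303, 0.84 ± 0.18, adjusted p = 0.0189, and 2.11 ± 0.54, adjusted p = 0.0433. The JAL34 call was lost without dark 4-day library 2, dark 7-day library 1 or either lit 4-day library (adjusted p = 0.075 to 0.12). The ATMS1 call was lost without dark 4-day library 2 or either lit 4-day library (adjusted p = 0.051 to 0.091). The NRT1.5 call was lost without either dark 4-day library, either lit 4-day library or either lit 7-day library (adjusted p = 0.07 to 0.13). An opposite-strand locus overlaps 18.4% of JAL34. On the lower side, ERD5, the proline dehydrogenase that degrades proline, had 1176 and 1407 CPM in 4-day and 1188 and 1148 in 7-day dark roots, and 524 and 434 in 4-day and 164 and 229 in 7-day lit roots. HSPRO2, an ortholog of a sugar beet nematode resistance gene, had 1557 and 1074 CPM in 4-day and 1456 and 1168 in 7-day dark roots, and 296 and 262 in 4-day and 101 and 69.2 in 7-day lit roots. In both the dark groups overlapped and the lit roots fell with age (adjusted p = 0.0131 and 0.0131). AT1G80070, annotated as a pre-mRNA splicing factor, had 649.5 and 661 CPM in 4-day and 1011 and 988 in 7-day dark roots, and 595 and 602 in 4-day and 595 and 603 in 7-day lit roots, with the 7-day dark roots above all others. The interactions were -1.14 ± 0.26, adjusted p = 0.0227, -1.71 ± 0.33, adjusted p = 0.0143, and -0.61 ± 0.15, adjusted p = 0.0301. The ERD5 call was lost without dark 4-day library 1, dark 7-day library 1 or either lit 4-day library (adjusted p = 0.052 to 0.1). The HSPRO2 call was lost without dark 7-day library 1 or lit 4-day library 1 (adjusted p = 0.063 to 0.065). The AT1G80070 call was lost without either dark 4-day library, either dark 7-day library or either lit 4-day library (adjusted p = 0.059 to 0.11).

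Cell division genes formed the list with the largest share of calls among the 39 lists examined. Of the 34 genes for mitotic cyclins, kinases and cytokinesis, all tested, 27 were higher, or 79.4% against 8.98% of all loci, and their median interaction was 1.97. The count was 16 without lit 4-day library 1. The median light effect of the list was 1.61 at 4 days and 3.495 at 7 days, the median change with age -1.99 in the dark and -0.10 with lit shoots. In the dark 30 of the 34 fell with age, where 18.3% of all loci did. CDC20.2, an activator of the anaphase-promoting complex, had 4.36 and 6.84 CPM in 4-day and 0.837 and 0.9201 in 7-day dark roots, and 16.6 and 17.6 in 4-day and 16.8 and 19.9 in 7-day lit roots. MAP65-4, which bundles microtubules of the spindle and phragmoplast, had 3.83 and 3.64 CPM in 4-day and 0.997 and 0.589 in 7-day dark roots, and 13.6 and 13.9 in 4-day and 22.6 and 14.7 in 7-day lit roots. Both were lowest in 7-day dark roots, intermediate in 4-day dark roots and highest in the lit groups, which overlapped for CDC20.2. The interactions were 2.76 ± 0.34, adjusted p = 0.00225, and 2.68 ± 0.39, adjusted p = 0.00472, and held in all settings tried. PC-MYB1 (MYB3R1), a repressor and activator of G2/M genes, was not called, at 59.6 and 57.3 CPM in 4-day and 55.4 and 64.5 in 7-day dark roots, and 52.4 and 51.6 in 4-day and 50.6 and 46.3 in 7-day lit roots. Its interaction was -0.14 ± 0.15, adjusted p = 0.563.

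The core of the mitosis-specific activator element, AACGG read on either strand, lay in the promoter of 67.7% of these 34 genes (23), against 24.5% of all 37897 promoters of the reference and 26.0% of the loci tested. A promoter here is 250 bases before to 50 bases after the annotated transcription start. A match describes letters in that window and is not evidence of binding. Shown are the promoters of the 2 named mitotic genes, the called members with the largest interaction values, and they hold 2 and 4 copies of that core. They come from the NCBI RefSeq genome TAIR10.1, CDC20.2 from chr4:16043500-16043799 and MAP65-4 from chr3:22480931-22481230, both read from the minus strand, 5′ to 3′, with capitals for AACGG, its complement CCGTT and, at the end of MAP65-4, TATAAA.
CDC20.2: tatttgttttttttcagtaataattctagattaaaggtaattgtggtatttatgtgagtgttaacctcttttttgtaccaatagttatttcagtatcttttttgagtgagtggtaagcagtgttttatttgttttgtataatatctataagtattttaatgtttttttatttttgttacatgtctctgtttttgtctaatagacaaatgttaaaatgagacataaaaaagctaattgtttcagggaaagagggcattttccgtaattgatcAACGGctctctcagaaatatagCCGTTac
MAP65-4: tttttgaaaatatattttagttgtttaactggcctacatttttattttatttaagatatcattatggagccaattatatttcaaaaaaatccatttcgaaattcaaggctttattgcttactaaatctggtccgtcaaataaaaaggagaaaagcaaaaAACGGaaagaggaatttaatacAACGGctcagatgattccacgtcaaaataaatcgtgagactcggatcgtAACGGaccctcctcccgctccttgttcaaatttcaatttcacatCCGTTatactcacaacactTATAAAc

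Calls among genes for DNA replication and the G1 to S step were mostly higher, at 29.55% against 8.98% of all loci. The lower share, 6.82%, was near the 5.55% of all loci. Of 44 tested among 45 listed, 13 were higher and 3 lower, with a median of 0.61; the higher count was 3 without lit 4-day library 1, 6 without lit 4-day library 2 and 8 without lit 7-day library 2. The lower count was 0 without lit 4-day library 1 and 1 without lit 4-day library 2. MCM10, a replication initiation factor, had 1.67 and 0.779 CPM in 4-day and 0.1196 and 0.0736 in 7-day dark roots, and 8.56 and 9.64 in 4-day and 6.67 and 8.21 in 7-day lit roots. CYCD3;1, a D-type cyclin that drives entry into division, had 5.82 and 5.33 CPM in 4-day and 2.11 and 1.95 in 7-day dark roots, and 8.56 and 10.2 in 4-day and 18.8 and 13.9 in 7-day lit roots. Their 7-day dark roots were lowest without overlap, and both were called, MCM10 with 5 counts in 7-day dark roots (adjusted p = 0.0135) and CYCD3;1 with an interaction of 2.26 ± 0.29, adjusted p = 0.00285. The MCM10 call was lost without dark 7-day library 2 or lit 4-day library 1 (adjusted p = 0.051 to 0.057), and that of CYCD3;1 held throughout. The lower calls included cyclin-dependent kinase inhibitors, which restrain division: ICK1 (KRP1) had 6.88 and 7.49 CPM in 4-day and 13.1 and 12.6 in 7-day dark roots, and 4.198 and 3.74 in 4-day and 2.04 and 2.71 in 7-day lit roots. ICK3 (KRP5) had 2.97 and 3.81 CPM in 4-day and 6.54 and 9.24 in 7-day dark roots, and 7.397 and 8.24 in 4-day and 5.97 and 5.11 in 7-day lit roots. Both rose with age in the dark (adjusted p = 0.0113 and 0.00631), and the interactions were -1.57 ± 0.28, adjusted p = 0.0101, and -1.72 ± 0.33, adjusted p = 0.0131. The ICK1 call was lost without lit 4-day library 1 (adjusted p = 0.054). The ICK3 call was lost without either lit 4-day library (adjusted p = 0.052 to 0.06). RBR1, the retinoblastoma-related brake on S phase, was not called, at 68.3 and 67.4 CPM in 4-day and 81.8 and 66.8 in 7-day dark roots, and 67.1 and 65.04 in 4-day and 62.2 and 65.1 in 7-day lit roots. Its interaction was -0.18 ± 0.16, adjusted p = 0.465. The 9 root meristem and cap markers summed to 125 and 137 CPM in 4-day dark, 89.5 and 103 in 7-day dark, 121 and 129 in 4-day lit and 69.7 and 91.2 in 7-day lit roots; their part in these calls was not tested.

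Regulators of the stem cell niche and root cap gave 2 higher and 4 lower calls among 28 tested. These were 7.14% and 14.3%, against 8.98% and 5.55% of all loci. The higher count was 0 without dark 4-day library 1, either dark 7-day library or either lit 4-day library and 1 without dark 4-day library 2 or lit 7-day library 2, and 1 with library totals as the only scaling and 1 with limma voom. The lower count was 1 without dark 4-day library 2, dark 7-day library 1 or either lit 4-day library and 2 without dark 4-day library 1 or dark 7-day library 2. BFN1, a nuclease of cell death in root cap and xylem, had 13.8 and 12.6 CPM in 4-day and 32.4 and 24.8 in 7-day dark roots, and 11.0 and 11.9 in 4-day and 9.69 and 9.75 in 7-day lit roots, with 7-day dark roots above all others and an interaction of -1.35 ± 0.22, adjusted p = 0.00756 that held in all settings. AIL6 (PLETHORA 3), a meristem transcription factor, had 108 and 114 CPM in 4-day and 105 and 108 in 7-day dark roots, and 50.4 and 48.9 in 4-day and 22.98 and 31.9 in 7-day lit roots, so that dark levels overlapped and lit levels fell with age (adjusted p = 0.0207). Its interaction was -0.80 ± 0.20, adjusted p = 0.0335. The AIL6 call was lost without either dark 4-day library, either dark 7-day library or either lit 4-day library (adjusted p = 0.076 to 0.12). BRN1, a NAC factor of root cap maturation, had 9.81 and 8.53 CPM in 4-day and 1.44 and 1.69 in 7-day dark roots, and 10.2 and 9.23 in 4-day and 3.898 and 7.37 in 7-day lit roots. Its interaction was 1.77 ± 0.42, adjusted p = 0.0268. The BRN1 call was lost without dark 4-day library 1, either dark 7-day library or either lit 4-day library (adjusted p = 0.052 to 0.098).

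Xylem and secondary wall genes had the largest median of the lists. The summed level of the 7 xylem markers given above was lowest in the 7-day dark libraries, and its part in these calls was not tested. Of 45 tested among 47 listed, 26 were higher and 2 lower, with a median interaction of 2.67; with 1 library left out the higher count stayed between 20 and 26. The shares were 57.8% higher and 4.44% lower, against 8.98% and 5.55% of all loci. In the dark, 31 of the 45 fell with age, where 18.3% of all loci did. The list's median change was -3.003 on the log2 scale in the dark, and with lit shoots it was -0.035. MYB103, a switch for secondary wall formation, had 1.14 and 1.17 CPM in 4-day and 0.0399 and 0 in 7-day dark roots, and 2.599 and 2.68 in 4-day and 3.35 and 1.71 in 7-day lit roots. IRX15, a protein of xylan synthesis, had 2.77 and 4.11 CPM in 4-day and 0.0399 and 0.1104 in 7-day dark roots, and 5.598 and 5.15 in 4-day and 6.96 and 4.301 in 7-day lit roots. The 7-day dark libraries held at most 3 counts of either gene, the 4-day dark libraries lay between those and the lit groups, and the lit groups overlapped. Both were called (adjusted p = 0.00935 and 0.00199). FRA8 (IRX7), a glycosyltransferase of xylan synthesis, went the other way with 163 and 183 CPM in 4-day and 269 and 229 in 7-day dark roots, and 88.3 and 82.3 in 4-day and 48.9 and 62.5 in 7-day lit roots. Its interaction was -1.14 ± 0.20, adjusted p = 0.0101. The FRA8 call was lost without lit 4-day library 1 (adjusted p = 0.055), and BFN1, also on this list, is described above. AT5G66390, peroxidase 72 of lignin formation, was not called (0.21 ± 0.27, adjusted p = 0.637).

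Growth-related wall genes followed, with 15 of 47 tested primary wall genes higher (31.9% against 8.98% of all loci) and a median of 1.196. That count was 8 without lit 4-day library 1 and 9 without dark 7-day library 1 or lit 4-day library 2, and 28 with no filter on low counts and 23 with DESeq2. EXPB1, a beta-expansin that loosens walls, had 5.94 and 10.3 CPM in 4-day and 0.359 and 0.221 in 7-day dark roots, and 49.3 and 35.5 in 4-day and 22.5 and 27.2 in 7-day lit roots; the 7-day dark roots lay far below all others and the interaction was 4.03 ± 0.52, adjusted p = 0.00354, in all settings tried. XTH20, a xyloglucan-remodelling enzyme, had 0.244 and 0.3897 CPM in 4-day and 0 and 0.0736 in 7-day dark roots, and 5.43 and 4.57 in 4-day and 14.7 and 8.63 in 7-day lit roots. It was called higher with 2 counts in 7-day dark roots (adjusted p = 0.0278). The XTH20 call was lost without dark 4-day library 2, dark 7-day library 1 or either lit 4-day library (adjusted p = 0.071 to 0.11) and with limma voom (0.12). CEV1 (CESA3), a primary wall cellulose synthase, missed the threshold with 479 and 489 CPM in 4-day and 309.9 and 323 in 7-day dark roots, and 849 and 805 in 4-day and 763 and 771 in 7-day lit roots. Its interaction was 0.50 ± 0.15, adjusted p = 0.0552. It passed with a minimum of 1 CPM (0.038), without the organelle loci (0.036), with DESeq2 (0.0063) and with limma voom (0.04).

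Root hair and epidermal fate genes gave 6 higher calls of 40 tested (15.0%) with a median of 1.09, and that count was 0 without lit 4-day library 2, 2 without lit 4-day library 1, 3 without dark 4-day library 2 or dark 7-day library 1 and 16 without dark 4-day library 1, and 25 with no filter on low counts and 13 with DESeq2. The median was 0.36 without dark 4-day library 2. Over all loci tested, 8.98% were higher. The median change with age of this list was -1.55 in the dark and -0.42 with lit shoots. RSL1, a bHLH factor that starts root hair growth, had 1.14 and 1.17 CPM in 4-day and 0.239 and 0.258 in 7-day dark roots, and 4.398 and 2.71 in 4-day and 4.08 and 4.36 in 7-day lit roots. Its interaction was 2.44 ± 0.52, adjusted p = 0.0184. The RSL1 call was lost without dark 7-day library 1 or lit 4-day library 2 (adjusted p = 0.057 to 0.058) and with limma voom (0.052). Casparian strip and suberin genes gave 5 higher calls of 30 (16.7% against 8.98% of all loci). That count was 1 without either lit 4-day library or lit 7-day library 1, 2 without dark 7-day library 2 and 3 without dark 7-day library 1, and 11 with no filter on low counts and 9 with DESeq2. CASP5, a scaffold protein of the Casparian strip, had 41.2 and 55.98 CPM in 4-day and 4.91 and 4.75 in 7-day dark roots, and 54.1 and 45.7 in 4-day and 15.4 and 14.3 in 7-day lit roots. It fell with age in the dark and with lit shoots (log2 -3.33 and -1.75, adjusted p = 3.67e-05 and 0.00526), and the interaction of 1.58 ± 0.24, adjusted p = 0.00507 held in all settings. MYB36, the factor that switches on the CASP genes, had 60.1 and 75.4 CPM in 4-day and 65.1 and 64.2 in 7-day dark roots, and 38.8 and 35.3 in 4-day and 20.3 and 18.9 in 7-day lit roots and moved the other way, at -0.85 ± 0.18, adjusted p = 0.0181. The MYB36 call was lost without dark 4-day library 1, dark 7-day library 1 or either lit 4-day library (adjusted p = 0.05 to 0.085). RWP1, the feruloyl transferase of suberin, had 229.7 and 247 CPM in 4-day and 209 and 221 in 7-day dark roots, and 221 and 226 in 4-day and 215 and 246 in 7-day lit roots. It was not called (0.19 ± 0.15, adjusted p = 0.425).

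**Figure D4:**
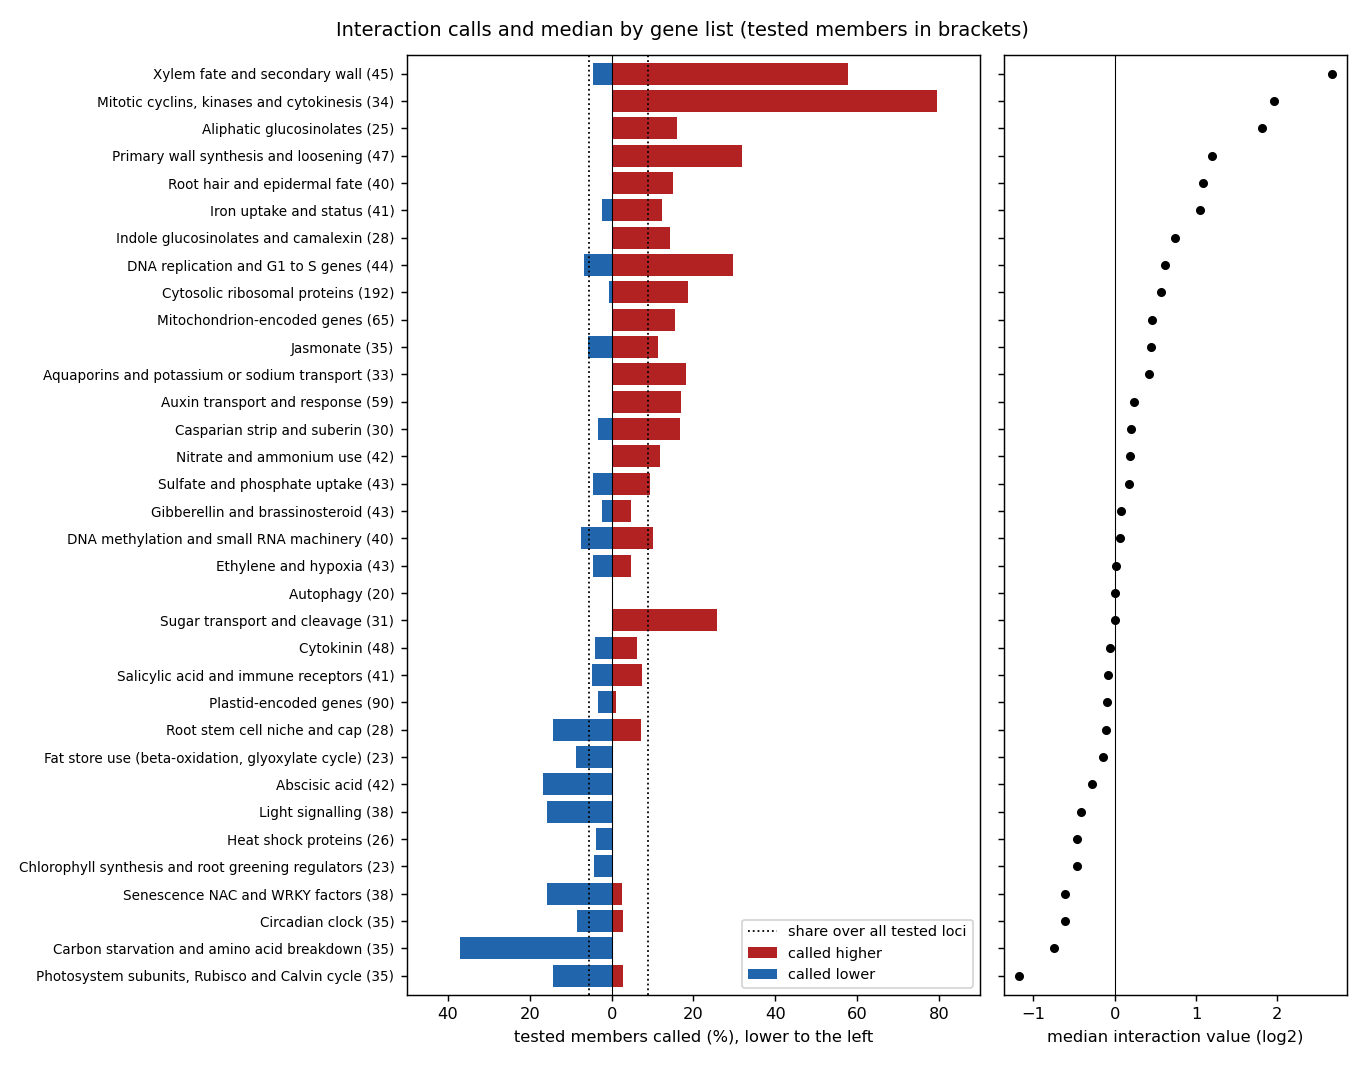
Share of tested members called higher and lower in the 34 gene lists with at least 20 tested members, in percent, beside each list's median interaction value (log2). Dotted lines mark the share over all 21026 loci (8.98% higher, 5.55% lower). Mitotic genes (27 of 34) and xylem genes (26 of 45) have the largest higher shares and carbon starvation genes (13 of 35) the largest lower share.

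Cytosolic ribosomal protein genes showed a small shift in most members. Their median interaction was 0.57, and 173 of 192 tested had a positive value, but 36 were called higher and 1 lower. These were 18.75% and 0.52%, against 8.98% and 5.55% of all loci. The median was 0.33 without lit 7-day library 2. The higher count was 2 without lit 4-day library 1, 7 without lit 4-day library 2, 11 without dark 7-day library 1, 15 without lit 7-day library 2, 16 without dark 4-day library 2, 19 without dark 4-day library 1 and 110 without lit 7-day library 1, and 19 with library totals as the only scaling, 101 with no filter on low counts, 63 with the replicate number as a block and 61 with DESeq2. In the dark 112 of the 192 fell with age, where 18.3% of all loci did, and with lit shoots 1, where 2.10% did. The largest values were those of AT2G40205 and AT3G56020, which both encode ribosomal protein L41. AT2G40205 had 7.002 and 6.02 CPM in 4-day and 3.11 and 2.65 in 7-day dark roots, and 16.2 and 18.8 in 4-day and 26.2 and 37.2 in 7-day lit roots. AT3G56020 had 13.8 and 12.9 CPM in 4-day and 5.82 and 8.91 in 7-day dark roots, and 32.2 and 34.7 in 4-day and 54.7 and 73.2 in 7-day lit roots. The groups of both genes stood in the order 7-day dark, 4-day dark, 4-day lit, 7-day lit without overlap. The interactions were 2.04 ± 0.29, adjusted p = 0.00415, and 1.79 ± 0.29, adjusted p = 0.00767, in all settings tried, although an opposite-strand locus overlaps 45.1% of AT2G40205. RPL3B, a copy of ribosomal protein L3, was lower, with 8.39 and 11.1 CPM in 4-day and 17.3 and 16.05 in 7-day dark roots, and 61.7 and 82.8 in 4-day and 58.7 and 62.2 in 7-day lit roots. Its interaction was -1.03 ± 0.24, adjusted p = 0.0271. This call was lost without dark 4-day library 1, either dark 7-day library, lit 4-day library 2 or lit 7-day library 1 (adjusted p = 0.054 to 0.1).

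The promoters of these L41 genes are shown because the genes had the largest interaction values of the list. They carry both letter strings that are common in front of plant ribosomal protein genes, the site II element TGGGCC and the telomere-repeat box AAACCCTA. Of the 192 ribosomal promoters, 66.7% held TGGGCC on either strand against 13.0% of all promoters, and 46.4% held AAACCCTA against 6.17%. The TATA string TATAAA was found in 48.8% of all promoters. Both windows lie on the minus strand of TAIR10.1 (RefSeq), AT2G40205 at chr2:16792573-16792872 and AT3G56020 at chr3:20791114-20791413. Capitals mark TGGGCC or GGCCCA, AAACCCTA or TAGGGTTT, TATAAA or TTTATA, and a single AACGG in AT3G56020. TATAAA and TTTATA overlap near the start of the AT2G40205 window.
AT2G40205: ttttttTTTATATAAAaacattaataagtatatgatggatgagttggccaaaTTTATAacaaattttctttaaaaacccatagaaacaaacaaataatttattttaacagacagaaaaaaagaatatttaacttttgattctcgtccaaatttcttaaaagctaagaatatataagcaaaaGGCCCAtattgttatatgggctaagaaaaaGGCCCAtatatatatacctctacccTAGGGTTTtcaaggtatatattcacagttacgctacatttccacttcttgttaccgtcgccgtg
AT3G56020: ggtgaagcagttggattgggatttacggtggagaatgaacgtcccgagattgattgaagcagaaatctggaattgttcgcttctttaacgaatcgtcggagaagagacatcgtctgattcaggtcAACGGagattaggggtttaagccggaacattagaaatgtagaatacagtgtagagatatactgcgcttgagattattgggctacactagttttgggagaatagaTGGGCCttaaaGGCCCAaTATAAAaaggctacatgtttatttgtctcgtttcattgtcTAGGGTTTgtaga

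Among lists with at least 20 tested members, carbon starvation genes had the largest share of lower calls. Of 35 tested genes for carbon starvation and amino acid breakdown, 13 were lower, or 37.1% against 5.55% of all loci, with a median of -0.74. That count was 2 without lit 4-day library 1, 5 without dark 4-day library 2 or dark 7-day library 1, 6 without dark 4-day library 1, 7 without lit 4-day library 2 and 8 without lit 7-day library 2, and 24 with no filter on low counts. The median was -0.47 without dark 7-day library 1. Light already reduced the list at 4 days (median -1.66) and more at 7 days (median -2.42). With lit shoots 10 of the 35 fell with age, where 2.10% of all loci did. Such age calls depended on single libraries, as given above. BCAT-2, a transaminase that degrades branched-chain amino acids, had 361 and 378 CPM in 4-day and 686 and 469 in 7-day dark roots, and 29.5 and 12.4 in 4-day and 4.55 and 4.602 in 7-day lit roots. Its 7-day lit roots were lowest and its dark groups highest, and the interaction was -2.84 ± 0.55, adjusted p = 0.0193. The BCAT-2 call was lost without either dark 4-day library, dark 7-day library 1 or either lit 7-day library (adjusted p = 0.053 to 0.088). DIN2, a beta-glucosidase induced by darkness, had the highest levels without a call, 2392 and 1854 CPM in 4-day and 6005 and 3242 in 7-day dark roots, and 29.95 and 21.7 in 4-day and 14.5 and 26.6 in 7-day lit roots (-1.45 ± 0.53, adjusted p = 0.107). With no filter on low counts it was called.

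In the fat store list of 23 tested genes, 2 were lower (8.70% against 5.55% of all loci), ICL and SDP1. That count was 1 without either dark 4-day library, dark 7-day library 1, either lit 4-day library or lit 7-day library 1, and 1 with DESeq2 size factors, 4 with no filter on low counts, 1 with a minimum of 1 CPM, 1 without the organelle loci and 1 with the replicate number as a block. The lipase SDP1, which starts oil breakdown, had 202 and 202 CPM in 4-day and 355 and 282 in 7-day dark roots, and 93.5 and 80.4 in 4-day and 80.03 and 89.8 in 7-day lit roots. Its interaction was -0.69 ± 0.20, adjusted p = 0.0482. The SDP1 call was lost without either dark 4-day library, dark 7-day library 1, either lit 4-day library or either lit 7-day library (adjusted p = 0.051 to 0.18) and with DESeq2 size factors (0.051), with a minimum of 1 CPM (0.061), without the organelle loci (0.065) and with the replicate number as a block (0.051). AT2G33150, the peroxisomal thiolase of beta-oxidation, had 1275 and 1108 CPM in 4-day and 1819 and 1339.6 in 7-day dark roots, and 464 and 437 in 4-day and 369 and 383 in 7-day lit roots. It missed the threshold (-0.67 ± 0.23, adjusted p = 0.0812); it passed with DESeq2 (0.036), with no filter (0.013) and without dark 7-day library 2 (0.036). None of 20 autophagy genes was called by edgeR with all 8 libraries and the limit of 10 counts, where 1 was higher and 4 lower at an unadjusted p below 0.05 and limma voom called none. The lower count was 3 without dark 7-day library 2, and 2 with library totals as the only scaling, 2 with no filter on low counts and 1 with DESeq2. NBR1, the autophagy cargo receptor, had 453 and 473 CPM in 4-day and 684 and 681 in 7-day dark roots, and 348 and 317 in 4-day and 436 and 392 in 7-day lit roots (-0.25 ± 0.16, adjusted p = 0.32). Among 31 sugar transport and cleavage genes, 8 were higher, and 5 without lit 4-day library 2. In other settings some of the list were lower, 1 without dark 7-day library 2 or lit 4-day library 2, 2 without lit 7-day library 1 and 3 without lit 7-day library 2, and 3 with library totals as the only scaling, 6 with no filter on low counts, 1 with the replicate number as a block, 5 with DESeq2 and 1 with limma voom. The share of higher calls in the sugar list was 25.8%, against 8.98% of all loci. The sucrose synthases SUS5 and SUS4 had the largest values. SUS5 had 9.85 and 10.1 CPM in 4-day and 2.95 and 1.803 in 7-day dark roots, and 14.7 and 11.1 in 4-day and 13.7 and 12.9 in 7-day lit roots. SUS4 had 2.48 and 2.901 CPM in 4-day and 0.957 and 1.03 in 7-day dark roots, and 11.2 and 10.9 in 4-day and 20.7 and 12.6 in 7-day lit roots. In both, 7-day dark roots were lowest, and the interactions were 2.12 ± 0.33, adjusted p = 0.00591, and 2.02 ± 0.38, adjusted p = 0.0124. The SUS4 call was lost without either lit 4-day library (adjusted p = 0.051 to 0.056) and with limma voom (0.073). ATBFRUCT1, a cell wall invertase that cleaves sucrose outside the cell, had 466 and 501 CPM in 4-day and 375 and 429 in 7-day dark roots, and 589.9 and 559.8 in 4-day and 463 and 469.7 in 7-day lit roots. It did not pass the test (-0.035 ± 0.16, adjusted p = 0.905).

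**Figure D5:**
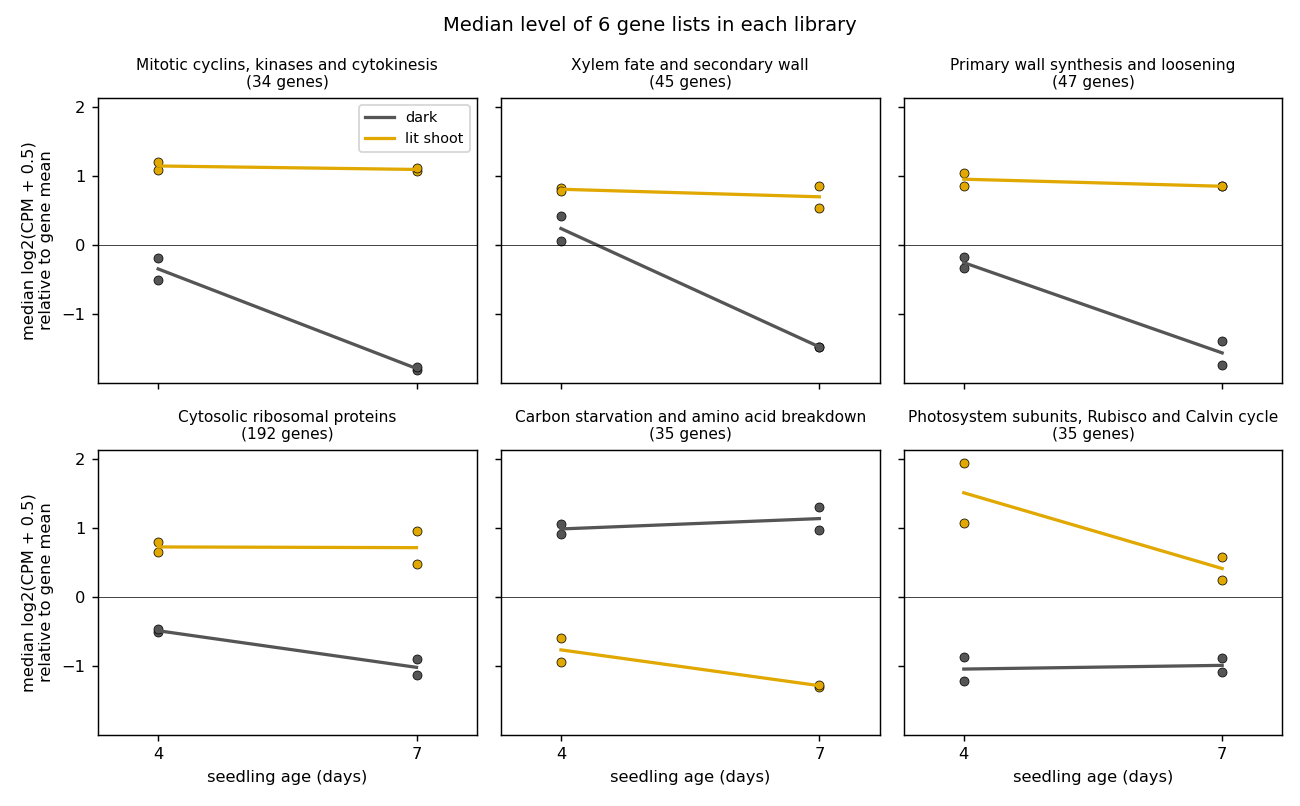
Median over the tested members of 6 gene lists of log2(CPM + 0.5) relative to each gene's mean over the 8 libraries, against age, with a point for each library and lines through the mean of each group. Mitotic genes sit at -1.81 and -1.77 in the 7-day dark libraries and between 1.07 and 1.21 in the 4 lit libraries, and photosystem genes are highest in the 4-day lit libraries (1.95 and 1.08).

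Photosynthesis genes, which the shaded roots expressed at low levels, had a larger light effect at 4 than at 7 days in the median. Among 35 genes for photosystem subunits, Rubisco and the Calvin cycle, 5 were lower and 1 higher. These were 14.3% and 2.86%, against 5.55% and 8.98% of all loci. The list had a median of -1.17 and a median light effect of 3.62 at 4 and 2.15 at 7 days. The median interaction was -0.71 without dark 7-day library 1. Lower calls numbered 0 without lit 4-day library 1, 1 without dark 4-day library 2 or dark 7-day library 1 and 3 without dark 4-day library 1, and 18 with no filter on low counts and 9 with DESeq2. Higher calls numbered 0 without dark 4-day library 2, dark 7-day library 1, either lit 4-day library or lit 7-day library 2. RCA, the Rubisco activase, had 7.53 and 4.98 CPM in 4-day and 16.4 and 15.5 in 7-day dark roots, and 57.4 and 30.96 in 4-day and 15.2 and 27.4 in 7-day lit roots. PSBO2, a subunit of the oxygen-evolving complex, had 2.77 and 1.73 CPM in 4-day and 6.34 and 3.24 in 7-day dark roots, and 16.1 and 10.9 in 4-day and 3.13 and 5.72 in 7-day lit roots. Light raised both at 4 days (adjusted p = 0.000994 and 0.00145), while at 7 days the dark and lit libraries overlapped for PSBO2 and its light effect was -0.10. For RCA at 7 days the lit libraries lay on both sides of the dark ones. The interactions were -2.39 ± 0.54, adjusted p = 0.0309, and -2.68 ± 0.60, adjusted p = 0.0249. The RCA call was lost without dark 4-day library 2, either dark 7-day library, lit 4-day library 1 or lit 7-day library 1 (adjusted p = 0.057 to 0.096) and with the replicate number as a block (0.051). The PSBO2 call was lost without dark 4-day library 2, dark 7-day library 1 or either lit 4-day library (adjusted p = 0.051 to 0.093). Among 15 antenna genes 1 was called (the count was 0 without dark 4-day library 2 or dark 7-day library 1, 2 without lit 4-day library 2 and 3 without lit 7-day library 2, and 7 with no filter on low counts and 3 with DESeq2), LHCB4.1, with 19.9 and 18.1 CPM in 4-day and 37.3 and 31.8 in 7-day dark roots, and 23.7 and 13.2 in 4-day and 10.1 and 10.6 in 7-day lit roots. Its interaction was -1.704 ± 0.34, adjusted p = 0.0167. The antenna share called lower was 6.67%, against 5.55% of all loci. The LHCB4.1 call was lost without dark 4-day library 2 or dark 7-day library 1 (adjusted p = 0.054 to 0.064). LHB1B2, the antenna gene with the highest level, had 0.244 and 0.0433 CPM in 4-day and 0.0798 and 0.1104 in 7-day dark roots, and 155 and 92.7 in 4-day and 28.01 and 37.8 in 7-day lit roots. It was not called (adjusted p = 0.554), its dark groups held 7 and 5 counts, and loci on the opposite strand overlap all of it. PGK1, a phosphoglycerate kinase, was higher at 22.2 and 27.4 CPM in 4-day and 11.9 and 13.9 in 7-day dark roots, and 58.4 and 52.8 in 4-day and 45.9 and 55.8 in 7-day lit roots. Its interaction was 0.81 ± 0.21, adjusted p = 0.0374. The PGK1 call was lost without dark 4-day library 2, dark 7-day library 1, either lit 4-day library or lit 7-day library 2 (adjusted p = 0.076 to 0.13). The shoot markers summed to 70.0 and 54.2 CPM in 4-day dark, 53.5 and 49.8 in 7-day dark, 44.5 and 38.8 in 4-day lit and 60.5 and 64.5 in 7-day lit roots. Most of that was KCS10, and the 15 others summed to 9.97 and 2.90 CPM in 4-day dark, 2.99 and 2.21 in 7-day dark, 4.57 and 4.67 in 4-day lit and 15.6 and 22.5 in 7-day lit roots. The part of shoot-type cells in these values was not tested.

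With all 8 libraries and that count limit, light signalling and clock genes were lower where they were called, apart from 1 clock gene. The lower share was 15.8% for light signalling and 8.57% for clock genes, against 5.55% of all loci. The higher share of clock genes was 2.86%, against 8.98%. Of 38 light signalling genes 6 were lower, and 3 without either dark 4-day library or either lit 4-day library, and 14 with no filter on low counts. Beside HFR1, RUP1, a repressor of the UV-B receptor, had 12.6 and 14.3 CPM in 4-day and 16.7 and 11.96 in 7-day dark roots, and 20.2 and 19.9 in 4-day and 4.99 and 7.49 in 7-day lit roots. Light raised it at 4 days (log2 0.58, adjusted p = 0.048) and reduced it at 7 days (log2 -1.19, adjusted p = 0.00138), for an interaction of -1.77 ± 0.31, adjusted p = 0.00997 in all settings. PHYA, the far-red photoreceptor phytochrome A, had 324 and 331 CPM in 4-day and 392 and 366 in 7-day dark roots, and 208 and 197 in 4-day and 177 and 198 in 7-day lit roots. This missed the threshold (-0.32 ± 0.15, adjusted p = 0.183). Of 35 clock genes 3 were lower and 1 higher; the lower count was 0 without dark 4-day library 2 or either lit 4-day library and 1 without dark 7-day library 2, and 16 with no filter on low counts and 6 with DESeq2. The higher count was 0 without dark 4-day library 2, either dark 7-day library, either lit 4-day library or lit 7-day library 1 and 2 without lit 7-day library 2, and 3 with no filter on low counts. CDF2, a cycling DOF repressor of flowering, had 51.8 and 45.5 CPM in 4-day and 92.4 and 131 in 7-day dark roots, and 25.2 and 27.6 in 4-day and 19.9 and 26.95 in 7-day lit roots and rose with age in the dark (adjusted p = 0.00312), with an interaction of -1.37 ± 0.28, adjusted p = 0.0166. That call was lost without dark 4-day library 2 or either lit 4-day library (adjusted p = 0.051 to 0.067), and 212 bases of CDF2 match another locus at 95% identity or more. With all 8 libraries and the limit of 10 counts, edgeR called none of the 11 flavonoid genes tested, although 1 was higher and 3 lower at an unadjusted p below 0.05, and limma voom called none. The lower count was 2 without dark 7-day library 1, and 2 with no filter on low counts and 1 with DESeq2, and 1 was higher with no filter. TT4, the chalcone synthase that opens the flavonoid pathway, was induced by light at both ages, from 0.163 and 0.0866 to 329 and 451 CPM at 4 days and from 0.1595 and 0.0368 to 279 and 194 CPM at 7 days, and it was not called (adjusted p = 0.869), with 6 and 5 counts in its dark groups.

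In the iron list of 41 tested genes, 5 were higher (12.2% against 8.98% of all loci), among them FRO2 and IRT2, and the median was 1.04. The higher count was 2 without dark 4-day library 2 or lit 4-day library 1, 3 without either dark 7-day library, 9 without lit 7-day library 1 and 16 without lit 7-day library 2, and 24 with no filter on low counts, 11 with DESeq2 and 3 with limma voom. The median was 0.66 without lit 7-day library 1. NRAMP1, a manganese and iron transporter, was lower, with 307 and 272 CPM in 4-day and 493 and 582 in 7-day dark roots, and 141 and 135 in 4-day and 142 and 149 in 7-day lit roots. Its interaction was -0.82 ± 0.17, adjusted p = 0.0175. The NRAMP1 call was lost without dark 4-day library 2 or either lit 4-day library (adjusted p = 0.064 to 0.082). In the nitrate and ammonium list of 42 tested genes 5 were higher (11.9%). That count was 1 without lit 4-day library 1, 2 without lit 4-day library 2 and 3 without either dark 4-day library or dark 7-day library 1, and 11 with no filter on low counts and 8 with DESeq2. In other settings some of the list were lower, 2 without dark 7-day library 2, and 2 with library totals as the only scaling, 3 with no filter on low counts and 1 with DESeq2. NIA1, a nitrate reductase, had 29.3 and 22.6 CPM in 4-day and 5.62 and 6.33 in 7-day dark roots, and 23.4 and 33.3 in 4-day and 44.7 and 43.2 in 7-day lit roots, so that the 7-day dark roots were lowest without overlap while 4-day dark and lit roots overlapped. Its interaction was 2.75 ± 0.27, adjusted p = 0.00124 and held in all settings. GLT1, the NADH-dependent glutamate synthase, stayed between 3079.8 and 3942 CPM in all libraries and was not called (0.055 ± 0.22, adjusted p = 0.89).

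For phosphate, PHO1;H1, which loads phosphate into the xylem, had 11.8 and 8.62 CPM in 4-day and 2.67 and 3.17 in 7-day dark roots, and 35.5 and 36.3 in 4-day and 32.9 and 33.5 in 7-day lit roots. Its interaction was 1.69 ± 0.24, adjusted p = 0.00388. LPR2, a ferroxidase of root growth arrest at low phosphate, had 87.9 and 87.3 CPM in 4-day and 158 and 158 in 7-day dark roots, and 38.8 and 31.1 in 4-day and 33.7 and 33.99 in 7-day lit roots. Its interaction was -0.90 ± 0.16, adjusted p = 0.0109. PHO1;H1 fell and LPR2 rose with age in the dark (adjusted p = 0.000295 and 0.0012), and neither changed by the test with lit shoots (adjusted p = 0.722 and 0.856). The sulfate transporter SULTR2;1 had 5.29 and 5.24 CPM in 4-day and 2.95 and 0.552 in 7-day dark roots, and 11.7 and 8.17 in 4-day and 43.4 and 32.6 in 7-day lit roots. Its interaction was 3.54 ± 0.76, adjusted p = 0.0276. The SULTR2;1 call was lost without either dark 4-day library, either lit 4-day library or either lit 7-day library (adjusted p = 0.059 to 0.093). Aquaporin and potassium or sodium transport genes gave 6 higher calls of 33, and 3 without either lit 4-day library, and 16 with no filter on low counts and 12 with DESeq2. The share of higher calls in this transport list was 18.2%, against 8.98% of all loci. DELTA-TIP, an aquaporin of the vacuole membrane, had 72.01 and 76.3 CPM in 4-day and 2.79 and 6.44 in 7-day dark roots, and 222 and 162 in 4-day and 93.1 and 113 in 7-day lit roots, lowest in 7-day dark roots by a wide gap. Its interaction was 3.101 ± 0.45, adjusted p = 0.00767 in all settings, with 33.4% of the gene overlapped on the opposite strand. PIP1B, a plasma membrane aquaporin, was not called, with 1566 and 1443 CPM in 4-day and 1824 and 1887 in 7-day dark roots, and 989.7 and 860.0 in 4-day and 628 and 1099 in 7-day lit roots (-0.40 ± 0.33, adjusted p = 0.434; 0.026 without lit 7-day library 2).

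Aliphatic glucosinolate genes, which make methionine-derived mustard oil precursors, had a median interaction of 1.81. Of 25 tested, 4 were higher (16.0% against 8.98% of all loci). With lit shoots 12 of the 25 rose with age, where 2.13% of all loci did. Such age calls depended on single libraries, as given above. The count of higher calls was 2 without dark 4-day library 1 or dark 7-day library 1, and 16 with no filter on low counts, 7 with the replicate number as a block and 8 with DESeq2, and the median was 2.96 without dark 7-day library 1. BAT5, the plastid transporter of their keto acid precursors, had 1.26 and 1.13 CPM in 4-day and 0.279 and 0.368 in 7-day dark roots, and 3.67 and 5.66 in 4-day and 17.6 and 24.7 in 7-day lit roots. It fell in the dark and rose with lit shoots (adjusted p = 0.0112 and 0.0077), and its interaction of 4.05 ± 0.49, adjusted p = 0.00217 held in all settings. UGT74C1, a glucosyltransferase of the same pathway, had no count in 7-day dark roots, 0.244 and 0.1299 CPM in 4-day dark, 3.099 and 5.63 in 4-day lit and 18.2 and 22.5 in 7-day lit roots, with 14.1% of the gene overlapped on the opposite strand. Among 28 indole glucosinolate and camalexin genes, 4 were higher (14.3% against 8.98% of all loci), and 0 without lit 4-day library 1, 1 without dark 7-day library 1, 2 without lit 4-day library 2 and 8 without lit 7-day library 2, and 14 with no filter on low counts and 7 with DESeq2. GSTF9, a glutathione transferase, had 53.2 and 79.3 CPM in 4-day and 26.2 and 42.9 in 7-day dark roots, and 426 and 431 in 4-day and 997 and 899 in 7-day lit roots. Its interaction was 2.08 ± 0.35, adjusted p = 0.00998. The GSTF9 call was lost without lit 4-day library 1 (adjusted p = 0.052). CYP83B1, which commits indole aldoxime to glucosinolates, had 78.6 and 106 CPM in 4-day and 47.3 and 59.2 in 7-day dark roots, and 329 and 374 in 4-day and 566 and 398 in 7-day lit roots. Its interaction was 1.25 ± 0.30, adjusted p = 0.0286. The CYP83B1 call was lost without dark 4-day library 2, dark 7-day library 1 or either lit 4-day library (adjusted p = 0.067 to 0.11). The root myrosinase PYK10 was the most abundant of the list at 2104 and 2580.4 CPM in 4-day and 973 and 1468 in 7-day dark roots, and 10588 and 9502 in 4-day and 15167 and 10004 in 7-day lit roots. It just missed the threshold (1.27 ± 0.36, adjusted p = 0.0505). Its adjusted p was 0.022 and 0.035 without lit 7-day library 2 or dark 7-day library 2, 0.0013 with DESeq2 and 0.045 with limma voom, and it was also called with no filter on low counts.

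Of 13 genes of the triterpene clusters and other root terpenes, 5 were higher, and 1 without lit 4-day library 2, 2 without dark 7-day library 2, lit 4-day library 1 or lit 7-day library 1 and 3 without dark 7-day library 1 or lit 7-day library 2, and 9 with no filter on low counts and 8 with DESeq2. The share of higher calls with all 8 libraries was 38.5%, against 8.98% of all loci. Beside MRN1, CYP708A2 of the thalianol cluster had 11.9 and 33.8 CPM in 4-day and 6.06 and 8.21 in 7-day dark roots, and 183 and 169.8 in 4-day and 419 and 283 in 7-day lit roots. Its interaction was 2.67 ± 0.67, adjusted p = 0.0464. The CYP708A2 call was lost without either dark 7-day library, either lit 4-day library or either lit 7-day library (adjusted p = 0.083 to 0.14) and with the replicate number as a block (0.064). Stretches of 154 to 180 bases of CYP708A2 match other loci at over 95% identity. CYP705A5 of the same cluster had 38.6 and 129 CPM in 4-day and 14.9 and 19.2 in 7-day dark roots, and 401 and 405 in 4-day and 506 and 452 in 7-day lit roots. It was not called (2.55 ± 0.71, adjusted p = 0.0618), and its 4-day dark libraries differed widely. Without either of those its adjusted p was 0.00033 and 0.0083, and with DESeq2 it was 0.012.

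Among hormone genes, auxin genes were higher and abscisic acid genes lower where edgeR called them with all 8 libraries and the limit of 10 counts. The auxin share was 16.95%, against 8.98% of all loci higher, and the abscisic acid share 16.7%, against 5.55% lower. Of 59 auxin genes 10 were higher, and 6 without dark 7-day library 1 or either lit 4-day library, and 17 with no filter on low counts. SHY2 (IAA3), an auxin response repressor that limits root meristem size, had 5.58 and 8.18 CPM in 4-day and 0.239 and 0.773 in 7-day dark roots, and 28.7 and 20.5 in 4-day and 30.02 and 17.02 in 7-day lit roots; it was lowest in 7-day dark roots and its lit groups overlapped. Its interaction was 3.66 ± 0.65, adjusted p = 0.0129, with 41.5% of the gene overlapped on the opposite strand. The SHY2 call was lost with limma voom (adjusted p = 0.0502). DAO2, a dioxygenase of the family that inactivates auxin, had 4.19 and 4.63 CPM in 4-day and 2.79 and 1.73 in 7-day dark roots, and 34.5 and 39.2 in 4-day and 153 and 99.1 in 7-day lit roots. Its interaction was 2.75 ± 0.37, adjusted p = 0.00437, in all settings. ABCB4, an auxin transporter of the root epidermis, had 438 and 524 CPM in 4-day and 521 and 530.2 in 7-day dark roots, and 604 and 600.3 in 4-day and 704 and 664 in 7-day lit roots. It did not pass the test (0.057 ± 0.17, adjusted p = 0.848). BR6OX1, which makes brassinosteroids, had 3.62 and 5.28 CPM in 4-day and 0.199 and 0 in 7-day dark roots, and 15.7 and 12.4 in 4-day and 10.2 and 10.9 in 7-day lit roots. AHP3, a cytokinin phosphotransmitter, had 16.9 and 18.9 CPM in 4-day and 10.4 and 12.4 in 7-day dark roots, and 24.9 and 24.5 in 4-day and 32.5 and 32.2 in 7-day lit roots. Both were lowest in 7-day dark roots without overlap, and both were called in all settings, BR6OX1 with 5 counts in 7-day dark roots (adjusted p = 0.00393) and AHP3 with an interaction of 1.04 ± 0.18, adjusted p = 0.00896. The cytokinin list of 48 genes gave 3 higher and 2 lower calls, or 6.25% and 4.17%. The gibberellin and brassinosteroid list of 43 gave 2 and 1, or 4.65% and 2.33%. Both lists were below the 8.98% and 5.55% of all loci. In the cytokinin list the higher count was 1 without dark 7-day library 1, either lit 4-day library or lit 7-day library 2, and 6 with no filter on low counts, and the lower count 0 without dark 4-day library 2, dark 7-day library 2 or either lit 4-day library and 1 without dark 4-day library 1 or dark 7-day library 1, and 1 with a minimum of 1 CPM, 1 without the organelle loci and 1 with limma voom. In the gibberellin and brassinosteroid list the higher count was 1 without dark 7-day library 1 or either lit 4-day library, and 6 with no filter on low counts and 4 with DESeq2, and the lower count 0 without dark 4-day library 2, dark 7-day library 1, either lit 4-day library or either lit 7-day library, and 0 with a minimum of 1 CPM and 0 without the organelle loci.

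Of 42 abscisic acid genes 7 were lower, and 1 without lit 4-day library 1, 2 without lit 4-day library 2, 3 without dark 4-day library 2 or dark 7-day library 1 and 4 without dark 4-day library 1, and 12 with no filter on low counts. LTI65 (RD29B), a classic abscisic acid target, had 1.02 and 2.16 CPM in 4-day and 4.71 and 3.24 in 7-day dark roots, and 0.5998 and 0.309 in 4-day and 0 and 0.0301 in 7-day lit roots; the 4 groups did not overlap, and the 7-day lit libraries held 0 and 1 count. It was called lower (adjusted p = 0.0137). The LTI65 call was lost without lit 4-day library 1 (adjusted p = 0.068). COR47, a dehydrin, had 910.5 and 840.4 CPM in 4-day and 543 and 389 in 7-day dark roots, and 1009 and 909 in 4-day and 405 and 508 in 7-day lit roots. This missed the threshold (-0.16 ± 0.25, adjusted p = 0.699). Of 35 jasmonate genes 4 were higher and 2 lower (11.4% and 5.71% against 8.98% and 5.55% of all loci). Higher calls numbered 8 without dark 4-day library 2, and 11 with no filter on low counts. Lower calls numbered 6 with no filter on low counts and 1 with limma voom. CYP94B1, which inactivates jasmonoyl-isoleucine, had 19.8 and 18.1 CPM in 4-day and 3.19 and 3.05 in 7-day dark roots, and 40.5 and 30.4 in 4-day and 16.7 and 26.02 in 7-day lit roots, with 7-day dark lowest. ST2A, a sulfotransferase of hydroxyjasmonate, had 246 and 216 CPM in 4-day and 398 and 272 in 7-day dark roots, and 35.1 and 33.8 in 4-day and 13.7 and 16.2 in 7-day lit roots, with 7-day lit lowest. The interactions were 1.87 ± 0.33, adjusted p = 0.00983, and -1.74 ± 0.26, adjusted p = 0.00506, in all settings. The jasmonate master regulator MYC2 had 560.1 and 487 CPM in 4-day and 380.2 and 315 in 7-day dark roots, and 141 and 130.0 in 4-day and 99.6 and 77.5 in 7-day lit roots. It was not called (-0.027 ± 0.22, adjusted p = 0.947), though an opposite-strand locus overlaps 98.5% of it. The ethylene list gave 2 higher and 2 lower calls of 43 (4.65% each, against 8.98% and 5.55% of all loci). Higher calls numbered 0 without lit 4-day library 1 and 1 without lit 4-day library 2, and 6 with no filter on low counts and 4 with DESeq2. Lower calls numbered 0 without either dark 7-day library or lit 4-day library 2, 1 without either dark 4-day library or lit 4-day library 1 and 4 without lit 7-day library 2, and 4 with no filter on low counts, 1 with a minimum of 1 CPM and 1 without the organelle loci. EIN3, the main ethylene transcription factor, was lower with 405 and 428 CPM in 4-day and 586 and 531 in 7-day dark roots, and 213 and 196 in 4-day and 179 and 189 in 7-day lit roots. Its interaction was -0.58 ± 0.16, adjusted p = 0.042. The EIN3 call was lost without either dark 4-day library, either dark 7-day library, either lit 4-day library or either lit 7-day library (adjusted p = 0.052 to 0.16) and with a minimum of 1 CPM (0.054) and without the organelle loci (0.059).

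Of 38 senescence NAC, WRKY and related genes 6 were lower (15.8% against 5.55% of all loci), with a median of -0.61. The count was 3 without dark 4-day library 2, dark 7-day library 1 or either lit 4-day library, and 17 with no filter on low counts. The median was -0.36 without dark 4-day library 2 and -0.39 without dark 7-day library 1. NYC1, which breaks down chlorophyll b, had 104 and 78.7 CPM in 4-day and 256 and 172 in 7-day dark roots, and 14.9 and 10.8 in 4-day and 5.28 and 6.68 in 7-day lit roots and rose with age in the dark (adjusted p = 0.00769), for an interaction of -2.33 ± 0.36, adjusted p = 0.00767 in all settings. WRKY22 had 91.2 and 68.97 CPM in 4-day and 72.7 and 71.8 in 7-day dark roots, and 14.9 and 12.5 in 4-day and 6.56 and 4.33 in 7-day lit roots. Its interaction was -1.19 ± 0.28, adjusted p = 0.0289. The WRKY22 call was lost without dark 4-day library 2, either dark 7-day library, either lit 4-day library or lit 7-day library 2 (adjusted p = 0.053 to 0.12). ALD1, which makes the immune signal precursor of pipecolic acid, was higher with 8.79 and 20.9 CPM in 4-day and 0.758 and 0.626 in 7-day dark roots, and 19.3 and 10.98 in 4-day and 17.2 and 12.3 in 7-day lit roots. Its interaction was 4.38 ± 0.71, adjusted p = 0.0109, in all settings. WRKY33, a regulator of camalexin, had 727 and 512 CPM in 4-day and 706 and 606 in 7-day dark roots, and 167 and 174 in 4-day and 184 and 103 in 7-day lit roots. It did not pass the test (-0.33 ± 0.38, adjusted p = 0.587). A heat shock factor, HSF1, was the lower call among 26 heat shock genes (3.85% against 5.55% of all loci). HSF1 had 17.2 and 19.2 CPM in 4-day and 30.7 and 28.6 in 7-day dark roots, and 12.4 and 12.1 in 4-day and 10.8 and 9.32 in 7-day lit roots. Its interaction was -0.99 ± 0.19, adjusted p = 0.0121. The HSF1 call was lost without dark 7-day library 1 or lit 4-day library 1 (adjusted p = 0.053 to 0.059). The list's count was 0 without dark 7-day library 1 or lit 4-day library 1 and 12 without dark 4-day library 1, and 8 with no filter on low counts, 2 with the replicate number as a block and 3 with DESeq2.

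CMT3, the chromomethylase of non-CG sites, had 17.4 and 19.9 CPM in 4-day and 4.63 and 3.86 in 7-day dark roots, and 59.6 and 64.9 in 4-day and 52.4 and 53.3 in 7-day lit roots. VIM1, a cofactor of CG methylation at replication, had 22.7 and 23.6 CPM in 4-day and 5.86 and 5.19 in 7-day dark roots, and 37.3 and 39.8 in 4-day and 28.7 and 36.5 in 7-day lit roots. In both, the 7-day dark roots lay lowest, then the 4-day dark roots, then the lit roots, and the interactions were 1.898 ± 0.18, adjusted p = 0.000928, and 1.82 ± 0.20, adjusted p = 0.00175, in all settings. The list of 40 DNA methylation and small RNA genes gave 4 higher and 3 lower calls (10% and 7.5% against 8.98% and 5.55% of all loci). The higher count was 2 without lit 4-day library 1, and 7 with no filter on low counts. The lower count was 0 without either dark 4-day library, either dark 7-day library, lit 4-day library 1 or lit 7-day library 2 and 1 without lit 4-day library 2, and 1 with a minimum of 1 CPM, 1 without the organelle loci and 1 with the replicate number as a block. DCL1, the Dicer enzyme of microRNA production, was lower at 126 and 131 CPM in 4-day and 216 and 213 in 7-day dark roots, and 70.97 and 58.01 in 4-day and 70.3 and 60.3 in 7-day lit roots. Its interaction was -0.72 ± 0.18, adjusted p = 0.0298. The DCL1 call was lost without either dark 4-day library, either dark 7-day library, lit 4-day library 1 or lit 7-day library 2 (adjusted p = 0.061 to 0.12). AGO1, the main microRNA effector, had 311 and 291 CPM in 4-day and 374 and 380.3 in 7-day dark roots, and 231 and 219.9 in 4-day and 250.3 and 246 in 7-day lit roots. This missed the threshold (-0.19 ± 0.14, adjusted p = 0.397).

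Calls at organelle loci were mainly in the mitochondrion, where 15.4% of the loci tested were higher, against 8.98% of all loci. Of 65 mitochondrion-encoded loci 10 were higher, and 6 without either lit 4-day library. ATMG01120 had 50.2 and 41.5 CPM in 4-day and 16.9 and 18.5 in 7-day dark roots, and 65.4 and 59.8 in 4-day and 61.9 and 77.4 in 7-day lit roots. Its interaction was 1.53 ± 0.20, adjusted p = 0.00323. ATMG00830 had 30.7 and 23.5 CPM in 4-day and 11.96 and 10.9 in 7-day dark roots, and 15.1 and 14.1 in 4-day and 17.5 and 16.5 in 7-day lit roots. Its interaction was 1.47 ± 0.22, adjusted p = 0.00492. The 7-day dark roots were lowest for both. ATMG00020, the most abundant, had 59217 and 77832 CPM in 4-day and 29016 and 32093 in 7-day dark roots, and 24727 and 19850.0 in 4-day and 41411 and 11162 in 7-day lit roots. It was not called (1.403 ± 0.73, adjusted p = 0.232), and its 7-day lit libraries were far apart. Without lit 7-day library 2 its adjusted p was 0.0054. Of 90 plastid-encoded loci 1 was higher and 3 lower (1.11% and 3.33%). With a single library left out, the higher count was 0 to 3 and the lower count 0 to 2. ATCG00020, the most abundant, had 363 and 302 CPM in 4-day and 282 and 267 in 7-day dark roots, and 4147 and 2159.9 in 4-day and 3391 and 2492 in 7-day lit roots. Its interaction was 0.18 ± 0.41, adjusted p = 0.797.

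Among the shoot tissue markers, 11 passed the count limit and 2 were higher, PDF1 and PDF2, both markers of the shoot epidermis. A single one, the leaf polarity factor KAN, was lower (adjusted p = 0.0164), and that call was lost without dark 4-day library 2, dark 7-day library 1 or either lit 4-day library (adjusted p = 0.0501 to 0.0789). The shares of these markers were 18.2% higher and 9.09% lower, against 8.98% and 5.55% of all loci. PDF1 had 1.22 and 0.346 CPM in 4-day and 0.1196 and 0.0368 in 7-day dark roots, and 0.766 and 0.789 in 4-day and 10.9 and 14.2 in 7-day lit roots. PDF2 had 0.896 and 0.346 CPM in 4-day and 0.957 and 0.294 in 7-day dark roots, and 0.733 and 0.721 in 4-day and 5.43 and 7.94 in 7-day lit roots. Both rose with age in lit roots (adjusted p = 0.00692 and 0.0193), where the 4-day libraries were below 1 CPM. PDF1, with 4 counts in 7-day dark roots, was called in all settings (adjusted p = 0.00217), and the interaction of PDF2 was 3.21 ± 0.82, adjusted p = 0.0348. The PDF2 call was lost without dark 4-day library 1, dark 7-day library 2, either lit 4-day library or lit 7-day library 2 (adjusted p = 0.058 to 0.16) and with limma voom (0.054). KCS10, the marker with the highest level, had 60.01 and 51.3 CPM in 4-day and 50.5 and 47.6 in 7-day dark roots, and 39.95 and 34.1 in 4-day and 44.8 and 41.99 in 7-day lit roots. It did not pass the test (0.41 ± 0.17, adjusted p = 0.139). Of 43 sulfate and phosphate genes 4 were higher and 2 lower (9.302% and 4.65%), and of 41 salicylic acid and immune receptor genes 3 and 2 (7.32% and 4.88%, against 8.98% and 5.55% of all loci). With a library left out, the former gave 2 to 5 higher and 1 to 4 lower calls and the latter 2 to 5 and 0 to 4. Of 23 chlorophyll synthesis genes 1 was lower (G4), and of 5 seed and late embryo genes 1 (GEA6), each lost with some of the libraries left out. The part of shoot-type cells in any of these calls was not tested.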

How the data were processed

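RNA-seq of 8 root libraries was deposited as raw read counts per locus for 33602 loci, not normalized. Per the labels' protocols, rRNA was depleted with a RiboZero kit. Per the submitters' processing notes, TopHat2, Subread, Trim Galore, FastQC and CASAVA 1.8.2 were used, with TAIR10. How strand and multiply mapped reads were treated in counting is not given in these sources, which touches overlapping genes and near-identical copies. Of the loci, 32835 were found in the TAIR10.1 annotation of RefSeq and 10654 had a symbol there.

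Loci with at least 10 counts in at least 2 libraries were fitted on all 8 libraries with edgeR 4.0.16 (R 4.3.3), TMM scaling and the quasi-likelihood test, with group means and no covariate, which leaves 4 residual degrees of freedom. The biological coefficient of variation shared by all loci came to 14.9%. The interaction and the 4 simple contrasts came from this fit, each with Benjamini-Hochberg adjustment over all loci tested. The simple contrasts share libraries with the interaction and with each other. Errors (±) are standard errors, computed as the absolute log2 value over the square root of F, and there were 2 libraries per group. The procedure was also run on simulated counts. Those held an effect at a set of altered loci alone, unlike these data, and nothing is concluded from them here.

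The genes, the 39 lists (1316 written memberships, plus organelle loci by chromosome) and the rules were chosen with earlier results of these data known. Named genes were those with a symbol that met these rules: the 8 largest values of each direction among calls with an average log2 CPM of at least 2, over 10 counts in every group and one sign in all 16 library combinations; the 3 largest of each direction where a group held 10 counts or fewer, by level; the 3 most abundant nuclear calls of each direction; up to 2 calls of each direction per list and its most abundant uncalled member; and 3 of each direction whose light effect was called at both ages with opposite signs. Not all of the genes so chosen for the lists are described. Promoters were read from the TAIR10.1 genome. Those of FRO2, JAL34, HOL2 and ERD5 were also searched, held 0, 1, 3 and 1 matches to the letter strings, and are not printed. Alternatives were DESeq2 size factors, library totals, no filter, filterByExpr, a minimum of 1 CPM in 2 libraries, removal of organelle, rRNA and tRNA loci, the replicate number as a block, DESeq2 1.42.0, limma 3.58.1 voom, and leaving out each library.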

Additional observations from a re-analysis of the deposited data

Results flagged for a closer look

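The interaction is itself the test of whether the light effect differed between the ages, so the loci named by it are collected here. It called 1889 loci higher and 1166 lower by edgeR with Benjamini-Hochberg adjustment. Among well-expressed genes, the largest positive log2 values were 5.82 for FRO2, 5.76 for DR4, 5.53 for KCS16, 5.33 for AGP22, 5.3 for VSP1, 5.16 for DMP2, 4.98 for CTL2 and 4.88 for MRN1. The largest negative values were -5.36 for HOL2, -5.15 for THA1, -4.22 for ICL, -3.53 for JRG21, -3.38 for SCPL7, -3.31 for MIOX4, -3.24 for AT4G35770 and -3.1 for RRTF1. The most abundant called genes had 0.879 for JAL34, 0.839 for ATMS1, 2.11 for NRT1.5, -1.14 for ERD5, -1.71 for HSPRO2 and -0.608 for AT1G80070. Genes whose light effect was called with opposite signs at the 2 ages had 4.75 for PME44, 3.71 for DOT1, 2.04 for ENP, -2.1 for ACP4, -2.16 for HFR1 and -1.67 for PDE312. With 2 libraries per group, single libraries were not tested as outliers. The calls of FRO2, DR4, HOL2, THA1, JRG21, MIOX4, AT4G35770, RRTF1, JAL34, ATMS1, NRT1.5, ERD5, HSPRO2, AT1G80070, PME44 and DOT1 were each lost under at least 1 alternative, given with the gene in the report.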

How the results depend on the processing

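The interaction gave 1579 to 2272 higher and 858 to 1325 lower calls under the scaling, filter and tool alternatives other than no filter on low counts, which gave 3110 higher and 1854 lower. With 1 library left out, the higher count was 633 to 1880 and the lower count 207 to 1039, and 27.2% to 75.5% of the calls were kept, none with the opposite sign. These fits leave a group with a lone library that is assumed to vary like the others. The share of calls that were higher was 69.7% with a minimum of 1 CPM, 71.3% without organelle, rRNA and tRNA loci and 56.0% with library totals. The light effect was called at 8527 to 12152 loci at 4 days and 12546 to 14513 at 7 days with 1 library left out. The age effect in the dark had 3481 to 7072 calls. The age effect with lit shoots had 0 to 1106, with 1786 by DESeq2 and 3056 with no filter. With the replicate number as a block, there were 1911 higher and 1152 lower interaction calls. The block kept 90% of the main calls. The differences between libraries 1 and 2 correlated at 0.0141 to 0.0778 between groups. Whether libraries of the same number shared a batch was not tested. None of the 117 named genes with a call changed sign under these alternatives; 16 uncalled named genes did, with these log2 ranges when a library was left out: COR47 (-0.346 to 0.162), MYC2 (-0.216 to 0.178), HEMA1 (-0.42 to 0.289), EBF1 (-0.333 to 0.452), WRKY33 (-0.81 to 0.0295), ABCB4 (-0.0153 to 0.227), RBR1 (-0.285 to 0.0318), ATBFRUCT1 (-0.0726 to 0.103), BHLH32 (-0.492 to 0.0499), BIN2 (-0.132 to 0.0423), PC-MYB1 (-0.202 to 0.0131), TT4 (-1.02 to 0.999), GLT1 (-0.131 to 0.225), HSP81-3 (-0.922 to 0.0473), AT5G66390 (-0.0247 to 0.496) and ATCG00020 (-0.217 to 0.724). With a minimum of 1 CPM the value was 0.0269 for MYC2, 0.0279 for HEMA1 and 0.0184 for ATBFRUCT1. Without organelle, rRNA and tRNA loci the value was 0.0343 for MYC2, 0.0356 for HEMA1 and 0.0261 for ATBFRUCT1. These alternatives reuse the libraries that gave the calls, so the kept signs are no separate support for them. Where a setting moved a count, the cause was not tested. With 2 libraries per group, the parts of replicate spread and of depth in the calls were not tested.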

Other observations

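Other letter strings were counted in the promoter windows, as a description without a test. The E2F site TTTCCCGC, on either strand, was found in 18.18% of the 44 DNA replication and G1 to S promoters against 0.786% of all promoters, and in 1.28% of the promoters of loci with a higher interaction and 1.03% of those with a lower one. The evening element AAAATATCT was found in 28.6% of the 35 clock promoters against 2.49% of all, and in 2.88% of the higher and 3.45% of the lower calls. The G-box CACGTG was found in 7.88% of the higher calls, 9.48% of the lower calls and 8.57% of all loci tested. The mitotic core AACGG, present in 67.7% of the mitotic list, was found in 25.6% of all higher calls and 26.0% of all loci tested.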
